A study of Mus musculus with 24 samples.

Results

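The cytosolic ribosomal protein genes were followed across the hippocampal arrays of a mouse model of Alzheimer's disease. A gene was a member if a probe set named it alone, if it was protein coding, and if its symbol was Rpl or Rps followed by a digit, or Rpsa, Rplp0, Rplp1 or Rplp2. The kinases of ribosomal protein S6 (symbols starting Rps6k) and pseudogenes were left out. This gave 67 members among 18964 genes. A gene was tested if its log2 value was above 4 in at least 2 arrays of every group, which 17092 genes passed. Of the members, 66 passed, 40 with an Rpl symbol (large subunit) and 26 with an Rps symbol (small subunit), and Rpl10l did not, with a mean of 3.72 on the log2 scale. The Rps symbols include Rps19bp1 and Rps23rg1, which entered by symbol only and are not proteins of the subunit. Each gene was read from its probe set of highest mean, and values on different probe sets were not set against each other.

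The study asked how inhibition of histone deacetylases and of phosphodiesterase 5, alone or together, changed the hippocampus of mice with amyloid pathology. Total RNA was hybridised to 24 arrays in 5 groups, vehicle (saline, n = 7), vorinostat (SAHA, a histone deacetylase inhibitor, n = 3), tadalafil (a phosphodiesterase 5 inhibitor, n = 3), the combination of vorinostat and tadalafil (n = 7) and CM-414 (n = 4). All mice carried the strain label B6.Cg-Tg(APPswe)E1-2Dbo/J and were 16 to 18 months old. They were treated for 4 weeks and went through fear conditioning and the water maze, and a drug-free interval of 4 weeks followed. By the study's methods, mice were then re-trained in a reversal water maze and killed 24 h after its final probe test. The arrays therefore measured RNA after washout and shortly after training. The study's methods described the mice as Tg2576, in which a prion protein promoter drives human APP with the Swedish mutation, and took 1 hippocampus per animal. Every group was transgenic, so no array gave the level in mice without the transgene. CM-414 is known here only by its code name.

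Ribosomal proteins clothe the ribosomal RNA of the small and large subunits and are made in near equal amounts. Their mRNAs are abundant in all cells, and in neurons they are also found in dendrites and axons. Most begin with a C followed by a run of pyrimidines, the 5′ terminal oligopyrimidine motif, through which mTOR signalling and Larp1 set their translation. Several of the genes also hold small nucleolar RNAs (snoRNAs) in their introns.

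The start-site sequences of 8 members named in the results are shown because they carry, or lack, that pyrimidine start. Each is 30 bases of the sense strand, 15 before and 15 from the annotated start (RefSeq, build GRCm38.p6). Capitals mark an unbroken run of pyrimidines, taken from its first C within 5 bases of the start and holding at least 4 pyrimidines after that C.
Rpl38 (chr11:114668565-114668594, plus strand): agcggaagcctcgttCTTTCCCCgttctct
Rpl15 (chr14:18270972-18271001, minus strand): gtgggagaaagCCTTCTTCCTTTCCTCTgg
Rpl27a (chr7:109519180-109519209, plus strand): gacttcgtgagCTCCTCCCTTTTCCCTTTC
Rpl34 (chr3:130730384-130730413, minus strand): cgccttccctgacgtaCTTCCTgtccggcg
Rps6 (chr4:86857353-86857382, minus strand): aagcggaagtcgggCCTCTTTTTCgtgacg
Rps9 (chr7:3704026-3704055, plus strand): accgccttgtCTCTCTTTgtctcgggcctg
Rps3 (chr7:99483695-99483724, minus strand): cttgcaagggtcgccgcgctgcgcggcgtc
Rpl41 (chr10:128549154-128549183, minus strand): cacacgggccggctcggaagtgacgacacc

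In Rpl38 the marked run began at the annotated start, in Rpl15, Rpl27a, Rps6 and Rps9 it began before the start, and in Rpl34 just after it. In Rpl27a it reached the end of the window. Of the 53 tested members with a promoter sequence, 23 (43.4%) had such a run, against 21.2% of 27025 genes. The other 30, Rps3 and Rpl41 among them, lacked it at the annotated start. Members with and without the run had median log2 differences of -0.14 and -0.08 for vorinostat against vehicle and 0.06 and 0.05 for CM-414 against vehicle. In the whole promoter window, 250 bases before to 50 after the start and read on both strands, the ETS motif CCGGAAGT lay in 11 members (20.8% against 4.31% of all genes). The cyclic AMP response element TGACGTCA lay in 4 (7.55% against 2.03%). The E-box CACGTG was found in 4 (7.55% against 8.09%) and the TATA motif TATAAA in 6 (11.3% against 15.7%). The motifs were searched separately and may overlap, and a match is a match of letters only. By gene coordinates, 22 of the 66 tested members (33.3%) held 44 snoRNA genes between them, against 1.88% of all tested genes that held any. Rpl4 held 5 and Rpl7a 4.

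The arrays were checked before the members were compared. The snoRNA Snord13 read 7.27 to 8.46 on the log2 scale in the 12 arrays of vehicle and combination replicas 1 to 3, vorinostat and tadalafil, and 10.35 to 11.46 in the 12 arrays of vehicle and combination replicas 4 to 7 and CM-414. The replica numbers therefore marked sets of arrays that differed outside any treatment, vorinostat and tadalafil lay with replicas 1 to 3, and CM-414 lay with replicas 4 to 7. Array vehicle 3 and array CM-414 3 stood apart, with means over 12 thalamus markers of 8.93 and 9.19 against 7.17 to 7.81 in the other arrays. Their means over 7 markers of hippocampal CA1 neurons were 7.44 and 7.27 against 8.42 to 8.90. The mean over 8 neuronal markers was 10.77 to 10.98 in all arrays. In tissue arrays a smaller number of cells of a type and less RNA per cell cannot be told apart.

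The members moved together, but only in part. For each member, Pearson's r with the mean of the other members over the 24 arrays was taken as a measure of likeness, and the arrays share tissue make-up and array set. The median r was 0.36, and 28 of 66 members (42.4%) were above 0.5, against 7.10% of all genes tested for their r with the mean of all members. The small subunit protein genes Rps3 (r = 0.85) and Rps9 (r = 0.84) and the large subunit gene Rpl35 (r = 0.79) were the closest to the rest. Rpl32l (r = -0.37), Rplp2 (r = -0.32) and Rpl30 (r = -0.31) ran the other way. Of these only Rplp2 stayed opposed within groups and replica sets (r = -0.33), where Rpl32l had an r of 0.07 and Rpl30 of 0.09. The means of the Rpl and the Rps genes had an r of 0.83 over the arrays.

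**Figure D1:**
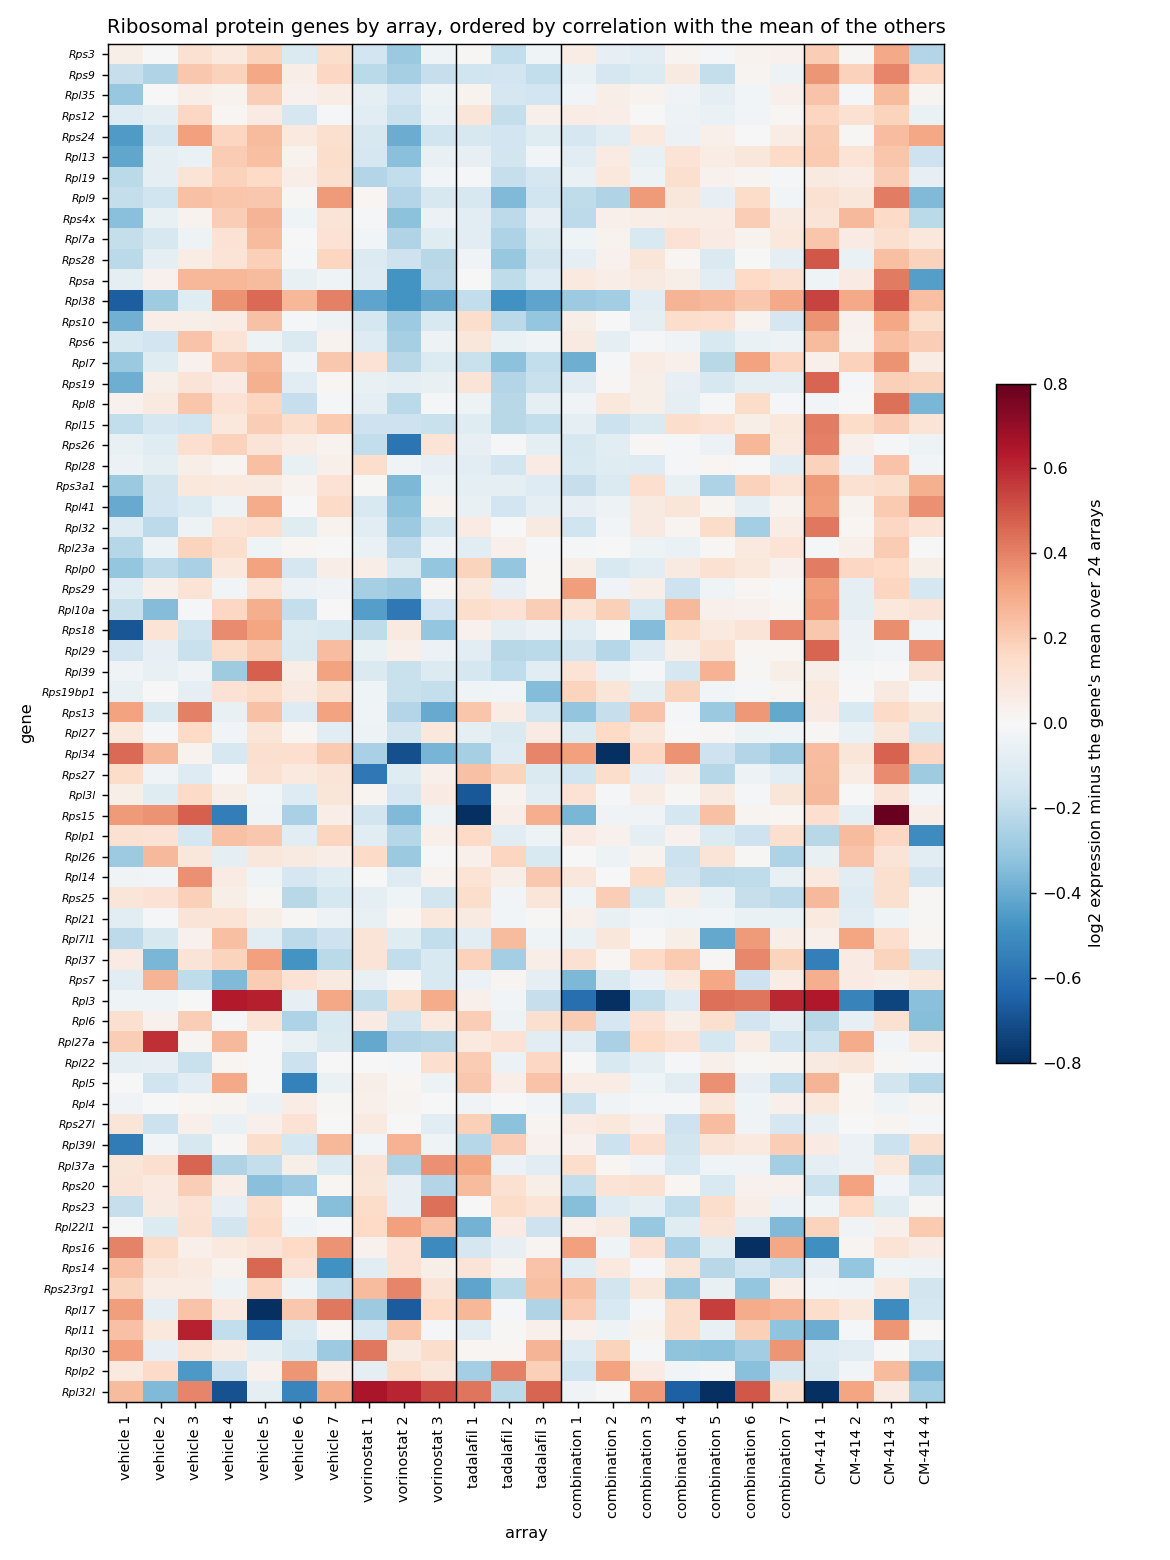
Log2 expression of 66 ribosomal protein genes (rows, ordered by r with the mean of the others) in 24 arrays (columns, grouped by treatment with black lines), each row minus its own mean over the arrays. The colour scale ends at 0.8 either way. Rows at the top are red and blue in the same arrays, with vorinostat 2 mostly blue and CM-414 1 and 3 mostly red, while rows at the bottom follow no shared order.

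The members split by brightness in this respect, a division made after the values were seen. Of the 33 members with a mean above 8 on the log2 scale, 25 had an r above 0.5 (median 0.67). Of the 33 at or below 8, only 3 did (median 0.09). Among all genes above 8, 10.7% of 5049 had an r above 0.5 with the member mean. The bright members include Rpl38, Rpl15, Rpl41, Rps6, Rps9 and Rpsa, and the dim ones Rplp2, Rps16, Rpl17, Rpl39 and the paralogues Rpl3l, Rpl7l1, Rpl22l1, Rpl32l, Rpl39l and Rps27l. Where a gene had more than 1 probe set of its own, the probe sets did not always follow each other. In 24 such genes the r between the brightest and the second probe set ran from -0.31 to 0.98 (n = 24 arrays), was above 0.5 in 8 and was below 0 in 6.

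Genes outside the family whose values most resembled the member mean included Ndufa6 (r = 0.89), a subunit of respiratory complex I, and Selenom (r = 0.88), a selenoprotein of the endoplasmic reticulum. Metrn, Ddt, Mapk8ip2, Aatk, Abca2, Myrf and Arrb1 were also among the 10 highest, with r from 0.85 down to 0.83. Myrf is the transcription factor of myelination, and the mean over 9 oligodendrocyte markers had an r of 0.46 with the member mean. The most opposed were Nup93 (r = -0.85), a nuclear pore protein, then Sec61a2, Sfpq, Serac1 and Eml5 (r = -0.83 to -0.81). The list means of mitochondrial ribosomal proteins and respiratory chain subunits had an r of 0.60 and 0.67, and that of thalamus markers 0.51. The part of tissue make-up in these likenesses was not tested.

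The mean over the 66 members spanned 0.29 on the log2 scale between the lowest and the highest array. It was 8.02 in vorinostat 2 and 8.31 in CM-414 3. The 3 vorinostat arrays averaged 8.09 ± 0.056 (SD, n = 3) and the 3 tadalafil arrays 8.13 ± 0.034 (SD, n = 3). Vehicle averaged 8.19 ± 0.069 (SD, n = 7), the combination 8.16 ± 0.026 (SD, n = 7) and CM-414 8.23 ± 0.076 (SD, n = 4). All of these ranges overlapped except that of vorinostat with CM-414, which lay apart by less than the SD of either group. Within vehicle, replicas 1 to 3 averaged 8.16 and replicas 4 to 7 averaged 8.21.

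**Figure D2:**
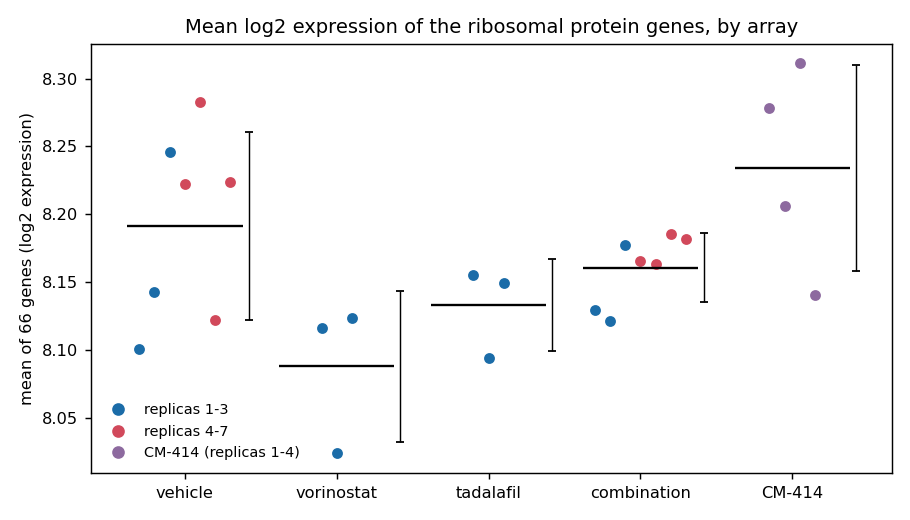
Mean log2 expression of the 66 members in each array (points, coloured by replica set), with the group mean (line) and SD (bar). Vorinostat holds the lowest array (8.02) and CM-414 the highest (8.31), and the combination arrays are the most closely grouped.

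In vorinostat against vehicle no member passed the threshold, an adjusted p of 0.05 over all 17092 genes in limma's moderated test (two-sided), where 0.00585% of all genes passed. At an unadjusted p of 0.05, 14 of 66 members passed against 8.76% of all genes. Of the members, 13 were above 0 and 53 below, with a median log2 difference of -0.11 against -0.01 over all genes. The genes with an Rps symbol had 2 of 26 above 0 (median -0.16) and those with an Rpl symbol 11 of 40 (median -0.07). Of those 2, Rps23rg1 was 1, and without it and Rps19bp1 the count was 1 of 24 (median -0.16). Among the 33 bright members 1 was above 0, while 46.5% of all genes of that brightness were. The comparison crosses the replica sets, and 26 of the 33 bright members were themselves higher in replicas 4 to 7 than in replicas 1 to 3. Against vehicle replicas 1 to 3 alone, 23 of 66 members were above 0 (median -0.07). That median was -0.0028 without vehicle 3 and -0.01 without vorinostat 2. The Rps symbols then had 5 of 26 above 0 (median -0.12) and the Rpl symbols 18 of 40 (median -0.0053). The bright members were not counted apart within replicas 1 to 3. Markers of other cells moved with this comparison. All 11 choroid plexus markers were above 0 (median 0.92), with means per array of 7.21 to 8.74 under vorinostat and 6.50 to 8.33 in vehicle. Of 12 thalamus markers none was above 0 (median -0.29), with means of 7.25 to 7.32 against 7.27 to 8.93. Of 9 oligodendrocyte markers 1 was above 0 (median -0.20), with means of 8.81 to 9.31 against 8.96 to 9.91. None of these markers was called, and their part in the member values was not tested.

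The members of smallest p under vorinostat were Rpl27a, Rpl34, Rps9 and Rpl10a. Rpl27a, a large subunit protein, read 6.07, 6.24 and 6.25 in the vorinostat arrays and 6.36 to 7.06 in vehicle (median 6.49). The groups did not overlap, and the log2 difference was -0.41 ± 0.12 (SE; adjusted p = 0.384 in limma, n = 3 and 7). Within replica set 1 to 3 it was -0.55 ± 0.14 (SE; adjusted p = 0.433 in limma).
Rpl34, also of the large subunit, read 6.36, 5.92 and 6.25 under vorinostat and 6.49 to 7.07 in vehicle (median 6.76). Again the groups were separate, with a log2 difference of -0.60 ± 0.20 (SE; adjusted p = 0.385 in limma). Rps9, a small subunit protein that helps form the mRNA entry channel, read 8.56, 8.51 and 8.59 under vorinostat against 8.53 to 9.09 in vehicle (median 8.94). Vehicle 1 and 2 were as low as the vorinostat arrays, and the difference of -0.29 ± 0.10 (SE) was -0.15 ± 0.10 against vehicle replicas 1 to 3. Rpl10a, of the large subunit, had a difference of -0.35 ± 0.12 (SE; adjusted p = 0.39 in limma).
Values that did not overlap were found for 5 members in this comparison, named here after they were seen. Rpl27a, Rpl34 and Rpsa were lower (2.31% of all genes were lower in this way) and Rpl22l1 and Rpl32l higher (1.17% of all genes). None of these 5 passed the adjusted threshold.

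**Figure D3:**
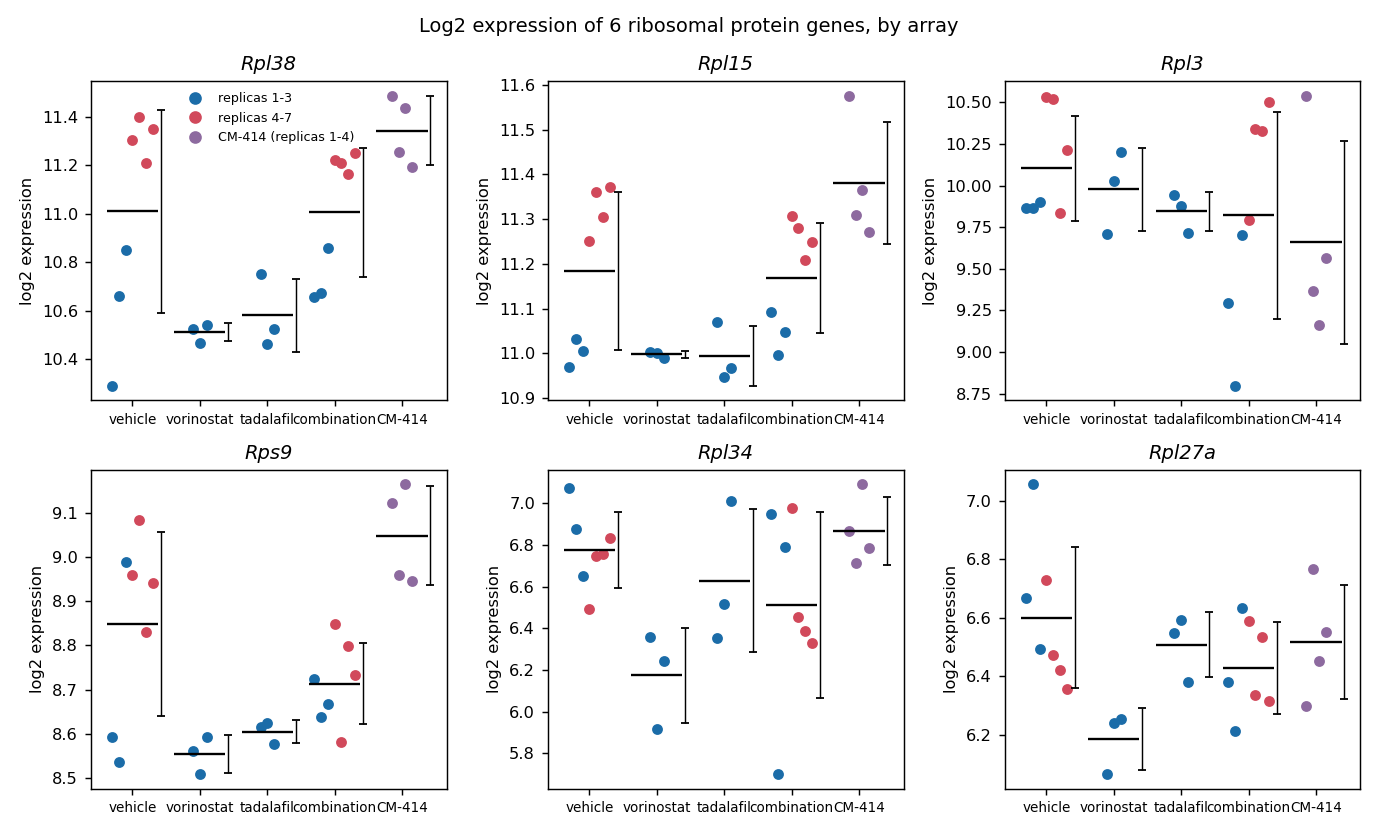
Log2 expression of 6 members in each array (points, coloured by replica set), with group mean (line) and SD (bar), on an axis for each gene. In Rpl38 and Rpl15 the points separate by replica set in vehicle and combination, with vorinostat and tadalafil at the level of replicas 1-3 and CM-414 at that of replicas 4-7. In Rpl27a and Rpl34 the 3 vorinostat points lie below all vehicle points.

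Tadalafil against vehicle gave no call among the members either (0% of all genes passed), and 7 of 66 had an unadjusted p under 0.05 against 5.32% of all genes. There were 24 members above 0, with a median of -0.07 (all genes -1e-04), and in replicas 1 to 3 alone the median was -0.02. Of the 12 thalamus markers none was above 0 (median -0.25), and their part was not tested. Their means were 7.30 to 7.39 under tadalafil and 7.27 to 8.93 in vehicle, where vehicle 3 was the highest array. Rpl22, a large subunit protein, read 7.18, 6.93 and 7.14 under tadalafil against 6.79 to 6.99 in vehicle (median 6.91). One tadalafil array lay within the vehicle range, and the difference was 0.18 ± 0.067 (SE; adjusted p = 0.917 in limma). The next were Rpl3l (-0.26), Rps9 (-0.24) and Rpl38 (-0.43), each with an adjusted p of 0.917 in limma. Rpl3l, a paralogue of Rpl3 known from striated muscle, read 4.70 in tadalafil 1 against 5.41 and 5.29 in tadalafil 2 and 3. Rpl38 was -0.02 ± 0.11 (SE) against vehicle replicas 1 to 3. Rps16, a small subunit protein, was the 1 member whose tadalafil arrays lay entirely below vehicle, at 5.51, 5.58 and 5.66 against 5.68 or more (0.977% of all genes were lower in this way).

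Over all arrays, the combination against vehicle had the member median nearest to 0 of the treatments. It was also the only treatment with arrays in both replica sets. No member passed the threshold (0% of all genes), and 0 of 66 had an unadjusted p under 0.05 in limma against 4.04% of all genes. Of the members, 24 were above 0, and the median was -0.03 (all genes -6e-04). None of the 12 thalamus markers (median -0.25) and none of the 9 oligodendrocyte markers (median -0.26) was above 0, and their part was not tested. Thalamus means were 7.17 to 7.39 under the combination and 7.27 to 8.93 in vehicle, where vehicle 3 was the highest array. Within replicas 4 to 7, 6 of 12 thalamus markers were above 0 (median 0.0058). None of the 9 oligodendrocyte markers was (median -0.10). Rps13, of the small subunit, ranged from 6.58 to 7.34 under the combination (median 6.81) and from 6.88 to 7.40 in vehicle (median 7.23). The ranges overlapped and the difference was -0.23 ± 0.12 (SE; adjusted p = 0.995 in limma, n = 7 and 7). The other members of smallest p were Rps9 (-0.13), Rpl27a (-0.17) and Rps16 (-0.25). Within replicas 1 to 3 the median over members was 0.0031, and within replicas 4 to 7 it was -0.05, with 18 of 66 above 0. Against vehicle of the same set, vorinostat had -0.07 and tadalafil -0.02 in replicas 1 to 3, and CM-414 had 0.03 in replicas 4 to 7. The combination was thus nearest to 0 in replicas 1 to 3 but not in replicas 4 to 7. No member had values apart between these groups in either direction (0.0234% of all genes were higher and 0.0527% lower in this way). Without vehicle 3 the median within replicas 1 to 3 was 0.07.

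CM-414 against vehicle leaned the other way. No member passed the threshold (0.00585% of all genes did), and 10 of 66 had an unadjusted p under 0.05 against 12.6% of all genes. There were 42 members above 0, with a median of 0.05 (all genes -0.01). Of the 12 thalamus markers 10 were above 0 (median 0.29) and of the 7 CA1 markers 1 was (median -0.36), and their part was not tested. Thalamus means were 7.39 to 9.19 under CM-414 and 7.27 to 8.93 in vehicle, with CM-414 3 and vehicle 3 the highest. CA1 means were 7.27 to 8.74 and 7.44 to 8.84, with the same arrays the lowest. Of the bright members 25 of 33 were above 0, against 37.8% of all genes of that brightness. Rpl41, the smallest protein of the large subunit, read 11.53, 11.22, 11.40 and 11.55 under CM-414 against 10.79 to 11.49 in vehicle (median 11.15). The upper vehicle arrays lay among the CM-414 arrays, and the difference was 0.27 ± 0.098 (SE; adjusted p = 0.239 in limma, n = 4 and 7). Against vehicle replicas 4 to 7 it was 0.13 ± 0.095 (SE).
Rps6, the small subunit protein phosphorylated by the S6 kinases, read 12.08, 11.86, 12.07 and 12.03 under CM-414 and 11.67 to 12.06 in vehicle (median 11.79). Its difference of 0.19 ± 0.072 (SE; adjusted p = 0.261 in limma) was nearly as large, 0.19 ± 0.084, against vehicle replicas 4 to 7. Rps3a1 (0.23) and Rplp0 (0.26) followed, with adjusted p values of 0.297 and 0.316 in limma. Rps3a1 was the 1 member whose CM-414 arrays, 9.02 to 9.24, all lay above vehicle (0.585% of all genes were higher in this way). The second, dim probe set of Rps3a1 (mean 4.82) did not follow the one used (r = -0.096 over the arrays). Over the members, the median against vehicle replicas 4 to 7 was 0.03, with 42 above 0 and 3 at an unadjusted p under 0.05 (10.3% of all genes).

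**Figure D4:**
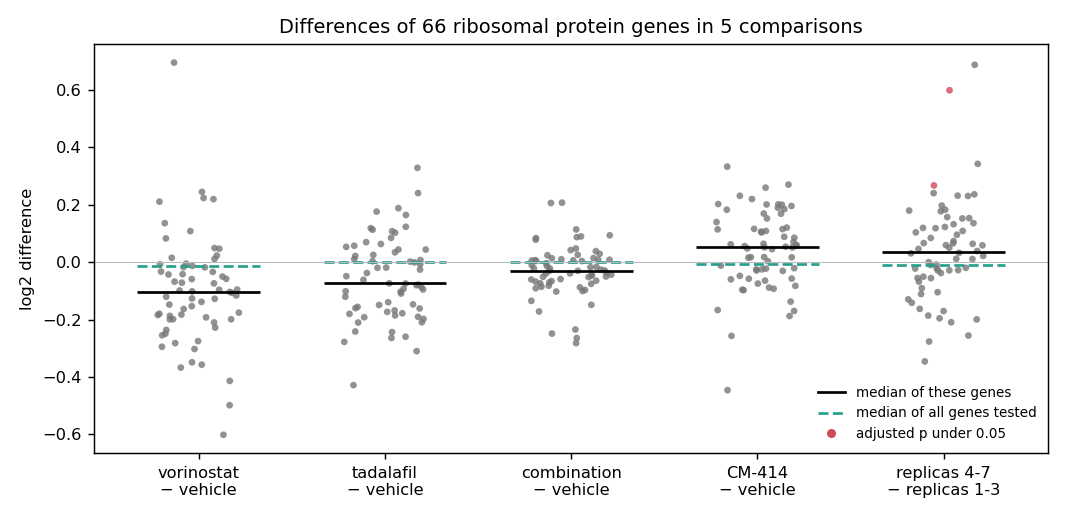
Log2 differences of the 66 members (points) in 4 treatment comparisons and between the replica sets, with their median (solid line) and the median of all 17092 genes (dashed line). The member median is -0.11 for vorinostat, -0.07 for tadalafil, -0.03 for the combination and 0.05 for CM-414, and only Rpl38 and Rpl15, in the replica set comparison, pass the threshold (red).

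Within the replica sets no member passed the threshold in any treatment comparison. For vorinostat against vehicle 1 to 3, where 0.00585% of all genes passed, 7 members had an unadjusted p under 0.05 in limma (8.59% of all genes). The counts were 4 for tadalafil against vehicle 1 to 3 (5.34% of all genes) and 3 for the combination within replicas 1 to 3 (5.82%). They were 2 for the combination within replicas 4 to 7 (3.64%) and 3 for CM-414 against vehicle 4 to 7 (10.3%), and 0% of all genes passed the adjusted threshold in these 4 comparisons.

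Treatments compared with each other gave no call among the members. For the combination against vorinostat (0% of all genes called) 49 of 66 members were above 0, with a median of 0.10 and 11 at an unadjusted p under 0.05 against 8.39% of all genes. Rpl10a had the smallest p of the members there, with a difference of 0.46 ± 0.12 (SE; adjusted p = 0.323 in limma). For the combination against tadalafil (0% called) the median was 0.04 and 4 members had an unadjusted p under 0.05 (4.16% of all genes). For vorinostat against tadalafil (0% called) the median was -0.05 and 5 members did (3.49% of all genes). CM-414 against the combination (0.0234% called, 0.00585% higher and 0.0176% lower) had a median of 0.06, with 9 members at an unadjusted p under 0.05 (15.9% of all genes). Rps9 had the smallest p of the members there, at 0.34 ± 0.088 (SE; adjusted p = 0.106 in limma). All 4 CM-414 arrays, 8.95 to 9.17, lay above the 7 combination arrays, 8.58 to 8.85. This separation was named after the values were seen, and the share of all genes apart in this way was not counted. The groups in these comparisons lie in part in different replica sets. Because they share arrays with the comparisons against vehicle, they are not separate evidence.

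The replica sets gave the only calls. Vehicle and combination replicas 4 to 7 were compared with replicas 1 to 3 of the same groups, 8 arrays against 6, with the treatment held equal. In this comparison 198 genes (1.16%) passed the threshold, 62 higher (0.363%) and 136 lower (0.796%). Among the members 2 passed, both higher in replicas 4 to 7, and none lower, and 16 of 66 had an unadjusted p under 0.05 against 15.2% of all genes. The median over members was 0.04, with 38 above 0, against -0.01 over all genes. All 11 choroid plexus markers were also above 0 (median 0.90), with means per array of 6.45 to 7.22 in replicas 1 to 3 and 6.94 to 8.58 in replicas 4 to 7. So were all 6 markers of dentate granule cells (median 0.28). Their means overlapped, at 6.51 to 7.66 in replicas 1 to 3 and 7.28 to 7.61 in replicas 4 to 7. Of 12 thalamus markers 1 was above 0 (median -0.33), with means of 7.17 to 8.93 against 7.26 to 7.32, vehicle 3 being the highest. In the combination alone 7 of 12 thalamus markers were above 0 (median 0.01), and in vehicle alone 1 was (median -0.62). None of these markers was called, and their part in the member values was not tested.

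Rpl38, a large subunit protein whose loss in mice disturbs axial patterning, read 10.29, 10.66 and 10.85 in vehicle 1 to 3 and 11.30, 11.40, 11.21 and 11.35 in vehicle 4 to 7. In the combination it read 10.66, 10.67 and 10.86 in replicas 1 to 3 and 11.22, 11.21, 11.17 and 11.25 in replicas 4 to 7. No array of one set reached the level of the other. The difference was 0.60 ± 0.075 (SE; 95% interval 0.44 to 0.76, adjusted p = 0.000623 in limma), or 1.51-fold. The vorinostat and tadalafil arrays, 10.46 to 10.75, lay in the range of replicas 1 to 3, and the CM-414 arrays, 11.19 to 11.49, lay at or above that of replicas 4 to 7. The difference was 0.72 ± 0.11 (SE; adjusted p = 0.00918 in limma) in vehicle alone, where 0.0351% of all genes were called (0.0117% higher) and Rpl38 was the 1 member among them. It was 0.48 ± 0.11 (SE; adjusted p = 0.216 in limma) in the combination alone, where no member was called (0.00585% of all genes) and 4 had an unadjusted p under 0.05 (8.02% of all genes). The vehicle call was lost without vehicle 1 (adjusted p = 0.0655), vehicle 5 (0.0624) or vehicle 7 (0.0523), with limma in each case.

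Rpl15, a large subunit protein, read 10.97, 11.03 and 11.00 in vehicle 1 to 3 and 11.25, 11.36, 11.30 and 11.37 in vehicle 4 to 7. In the combination it read 11.09, 11.00 and 11.05 and then 11.31, 11.28, 11.21 and 11.25. The sets were again separate, and the difference was 0.27 ± 0.049 (SE; 95% interval 0.16 to 0.37, adjusted p = 0.015 in limma), or 1.20-fold. CM-414 read 11.27 to 11.58 and vorinostat and tadalafil 10.95 to 11.07. Rpl38 and Rpl15 were also the only members whose values in replicas 4 to 7 all exceeded those in replicas 1 to 3, where 0.743% of all genes did so, and no member was entirely lower (1.42% of all genes).

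Rpl3, a large subunit protein that reaches towards the peptidyl transferase centre, had a larger difference that did not pass, 0.69 ± 0.18 (SE; adjusted p = 0.0616 in limma). Its vehicle arrays read 9.86, 9.86 and 9.90 in replicas 1 to 3 and 10.53, 10.52, 9.84 and 10.21 in replicas 4 to 7. The combination read 9.29, 8.80 and 9.70 and then 9.79, 10.34, 10.33 and 10.50. Vehicle 6 and combination 4 lay among replicas 1 to 3, so the sets overlapped. The 2 other probe sets of Rpl3 had differences of -0.29 and 0.06, and Rpl3 did not follow CM-414's place with replicas 4 to 7, since CM-414 read 10.54, 9.37, 9.16 and 9.56.

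The replica set difference was compared between groups that share no array. Over the 66 members, 47 had the same sign in vehicle and in the combination, 29 higher and 18 lower in both, with an r of 0.47 across members, which are not independent. The difference of the differences passed for no member (0% of all genes), and 2 of 66 had an unadjusted p under 0.05 in limma (4.22% of all genes). Members that hold a snoRNA gene had a median set difference of 0.0057 (11 of 22 above 0) and those that hold none 0.06 (27 of 44 above 0). The bright members had a median of 0.10 with 26 of 33 above 0, while all genes of that brightness had a median of -0.01 with 47.1% above 0.

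**Figure D5:**
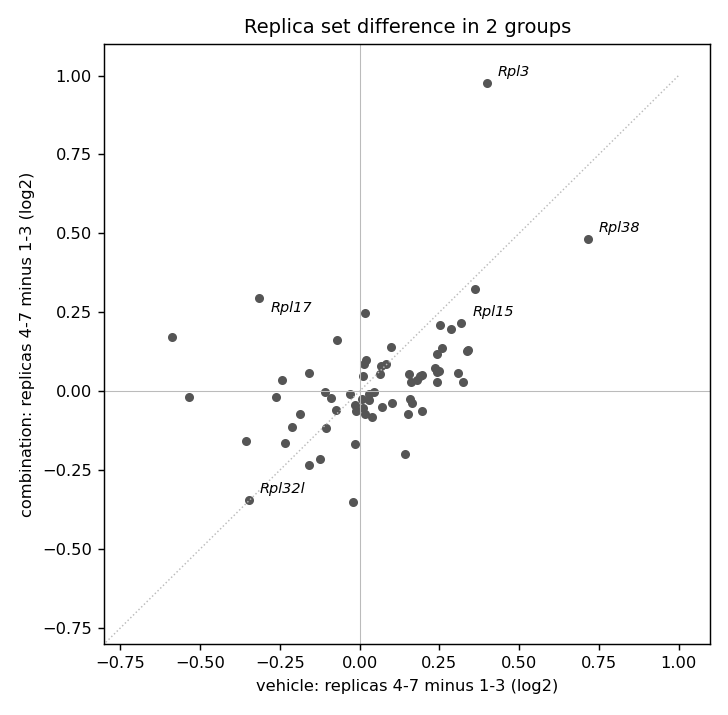
Log2 difference between replicas 4-7 and 1-3 in vehicle (horizontal) and in the combination (vertical) for each of the 66 members (points). The dotted line marks equal differences. Rpl38, Rpl15 and Rpl3 lie in the upper right, higher in replicas 4-7 in both groups, while Rpl17 differs in sign between the groups.

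The P-stalk proteins, which recruit elongation factors to the large subunit, did not move as a unit. Against vehicle, Rplp0 had differences of -0.06 with vorinostat, 0.03 with tadalafil, 0.09 with the combination and 0.26 with CM-414. For Rplp1 these were -0.18, -0.08, -0.10 and -0.17. For Rplp2 they were 0.05, 0.10, -0.04 and -0.06, on a dim probe set (mean 5.05). These differences cross the replica sets, and Rplp0 averaged 7.51 in vehicle 1 to 3 and 7.85 in vehicle 4 to 7. Its means under vorinostat (7.64) and tadalafil (7.73) lay above the former, and that under CM-414 (7.96) above the latter. In the combination Rplp0 averaged 7.71 in replicas 1 to 3 and 7.85 in replicas 4 to 7. Rpsa, the small subunit protein also known as the laminin receptor, read 9.39, 9.01 and 9.28 under vorinostat and 9.41 to 9.75 in vehicle, with a difference of -0.36 ± 0.12 (SE; adjusted p = 0.407 in limma). CM-414 arrays spanned 9.04 to 9.90 for this gene. Rps19bp1, which encodes a protein that binds ribosomal protein S19 and entered by its symbol only, was at -0.18 with both vorinostat and tadalafil (adjusted p = 0.523 and 0.917 in limma).

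Paralogues were set beside their parents by difference and not by level. For vorinostat, Rpl22l1 was at 0.24 ± 0.10 (SE) and its parent Rpl22 at 0.11 ± 0.067 (SE), while Rpl39l was at 0.14 and Rpl39 at -0.20. Rpl7l1 was at 0.01 and Rpl7 at -0.12, Rps27l at -0.02 and Rps27 at -0.25, and Rpl3l at -0.03 and Rpl3 at -0.13. These differences cross the replica sets. Against vehicle replicas 1 to 3 the parents Rpl7 (mean 8.42 against 8.38) and Rpl3 (9.98 against 9.88) were higher under vorinostat. Rps27 (7.02 against 7.24) and Rpl39 (5.69 against 5.78) stayed lower, and Rpl22 (7.01 against 6.87) stayed higher. Rpl32l, the member with the largest SD over the arrays (0.51), read 5.25, 5.20 and 5.12 under vorinostat against 3.90 to 4.99 in vehicle, and 3.39 to 4.91 under CM-414. Its difference of 0.70 ± 0.30 (SE; adjusted p = 0.53 in limma) was the highest of all members there, close to the floor set on low values. Rpl32 itself varied little, from 9.19 to 9.90. After Rpl32l the most variable members were Rpl3 (SD 0.46), Rpl17 (0.40), Rpl38 (0.38) and Rpl34 (0.36), and the least was Rpl4 (0.05). The median SD of the members was 0.18, against 0.17 over all genes.

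The wider translation machinery was given by lists. Of 34 initiation factors 17 were above 0 with vorinostat (median -0.0016), and of the 11 genes of the elongation list, which holds Eef2k (the kinase of Eef2), Tpt1 and Eef1e1 beside elongation factors, 2 were (median -0.06). Of 10 genes of the mTOR pathway 2 were above 0 (median -0.11), and of 34 ribosome assembly genes 16 (median -0.0072). Mitochondrial ribosomal proteins (15 of 71 above 0, median -0.11) and respiratory chain subunits (19 of 87, median -0.09) had medians like that of the cytosolic family (-0.11). Against vehicle replicas 1 to 3 the mitochondrial ribosomal and respiratory chain medians were -0.13 (7 of 71 above 0) and -0.14 (10 of 87). The cytosolic family had a median of -0.07 there (23 of 66). With CM-414 the cytosolic family (0.05) differed in sign from the initiation factors (-0.05, 12 of 34 above 0), the assembly genes (-0.05, 10 of 34) and the respiratory chain (-0.04, 34 of 87). Against vehicle replicas 4 to 7 the family was at 0.03, the initiation factors at -0.06 and the assembly genes at -0.04. The respiratory chain was at -0.0051 there (42 of 87 above 0) and mitochondrial ribosomal proteins were at 0.02 (43 of 71). No gene of these lists was called in any treatment against vehicle. Between the replica sets, Tsr2, which escorts Rps26 to the pre-ribosome, was lower in replicas 4 to 7 by a log2 difference of -0.29 ± 0.056 (SE; adjusted p = 0.0184 in limma). Wdr12, of the complex that matures the large subunit, was at -0.27 ± 0.064 (SE; adjusted p = 0.0406 in limma). Eef1e1, a scaffold of the aminoacyl-tRNA synthetase complex, was at -0.36 ± 0.082 (SE; adjusted p = 0.0377 in limma). Of the 34 assembly genes 2 and of the 11 genes of the elongation list 1 were thus lower, with none higher, where 0.363% of all genes were higher and 0.796% lower. No initiation factor or mTOR pathway gene was called between the sets. Of the 71 mitochondrial ribosomal proteins 2 were lower, and of the 87 respiratory chain subunits 2 were higher and 6 lower.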

How the data were processed

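The deposited values are log2 expression per probe set of Affymetrix Mouse Gene 2.0 ST arrays, which the authors background-corrected and normalised with RMA (its version is not stated). The methods describe 3 animals in each of 4 groups. Which arrays these are, and which arrays were normalised together, was not found in the labels or the methods. They were used as deposited. Of 41345 probe sets, 23521 named 1 gene, 1820 several and 16004 none. A further 14 ribosomal protein symbols, among them Rpl10, Rpl13a and Rps2, lay only in probe sets naming several genes and were left out, as were 15 pseudogene probe sets, and Rps27a was not analysed here. Genes were taken as protein coding from RefSeq (GRCm38.p6). The floor follows the methods' criterion (a linear value above 16 in at least 2 samples of each group).

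limma 3.58.1 in R 4.3.3 was fitted to all 24 arrays, once with 5 group means and once with vehicle and combination split by replica number, with Benjamini-Hochberg adjustment over 17092 genes and a threshold of 0.05. Intervals are 95%. The fit was tested on simulated data. Figures and counts used Python 3.11.15. The labels name biological replicas. The highest correlation between any 2 arrays was 0.9924, so none was a duplicate. The number of arrays per group limits the precision.

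The members and lists were chosen with earlier results of these data known. Named members were those past the threshold, the 4 of smallest p in each treatment against vehicle, the 5 of largest SD, the P-stalk genes, Rpsa, Rps19bp1 and paralogues beside parents, and the 10 genes most and 5 least like the member mean, of which 1 is not reported here. The alternatives changed the low-value filter, the probe set choice, the scaling, array weights, the prior variance, the samples fitted, blocks for replica number and array set, and left out arrays.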

Additional observations from a re-analysis of the deposited data

Results flagged for a closer look

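Of 90 tests, of 29 named members and the member mean in each group of 4 or 7 arrays, 2 found an array far from the rest, and chance alone marks about 1 group in 20. Rpl17 read 4.54 in vehicle 5 against 5.79 to 6.28 in the other vehicle arrays. Rps16 read 5.15 in CM-414 1 against 5.66 to 5.75 in the other CM-414 arrays. Neither gene was called in any comparison.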

How the results depend on the processing

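In 15 of the 17 comparisons 0 members were called, so that counts there could only stay at 0 or rise. Among the named members no direction was reversed. The member median of CM-414 against vehicle replicas 4 to 7 did change sign, from 0.03 to -0.05, with replicate number as a block. With array weights, 7 members were called between the replica sets together (1026 of all 17092 genes, 329 higher and 697 lower), 3 in vehicle (189 of all genes) and 2 in the combination (116 of all genes), all of these members higher in replicas 4 to 7, and the cause was not tested. Fitted on the vehicle arrays alone, the vehicle set difference called 0 members with fewer arrays for the spread. Leaving out each array gave 0 to 1 members for the vehicle sets (0 without vehicle 1, 5 or 7), 0 to 3 for CM-414 against the combination (3, all higher, without CM-414 2, when 686 of all genes were called, 247 higher and 439 lower), 2 throughout for the sets together and 0 elsewhere.

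The deviations of same-numbered arrays of different groups had a median r of -0.0050 over 36 pairs (12 above 0.1, highest 0.734). For arrays of other numbers the median was 0.01 over 186 pairs (37 above 0.1, highest 0.272). The medians gave no sign of pairing, but some same-numbered arrays were alike, so whether the numbers pair samples was not settled. With replicate number as a block, 0 members were called in each of the 17 comparisons, against 2 without it for the sets together and 1 for the vehicle sets. Of all genes, 1.61% were then called for CM-414 against vehicle and 1.57% for CM-414 against the combination. No gene was called in the other comparisons with that block. With that block the sets are linked only through CM-414 4 beside CM-414 1 to 3. The differences between the sets were then 0.80 for Rpl38 and 0.40 for Rpl15, and the member median was 0.15 for the sets together.

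With array set as a block, the member median was -0.09 for vorinostat, -0.03 for tadalafil, -0.03 for the combination and 0.03 for CM-414. Also without vehicle 3 and CM-414 3, an alternative chosen after seeing the data, these were -0.05, -0.02, -0.01 and 0.02. Without CM-414 4 the median of CM-414 against the combination was 0.12. Groups of 3 arrays limit what could be detected.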
